A study of Mus musculus with 8 samples.

Results

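The receptors that sense estrogen, the related receptors that resemble them, and the enzymes that activate or inactivate steroid hormones were examined in the livers of ovariectomized (OVX) mice. The group was defined by name as 10 genes, Esr1, Esr2, Esrra, Esrrb, Esrrg, Hsd17b2, Hsd17b11, Hsd11b1, Srd5a1 and Sts. Of these, 8 were named by the array's annotation, each by 1 probe set that named no other gene, among 19938 genes in all. Srd5a1, a steroid 5 alpha-reductase, and Sts, the steroid sulfatase, were not analysed here. All animals were female C57B1/6J mice that had their ovaries removed at 7 weeks of age, and 1 week later began a high fat diet (HFD) or the same diet with white button mushroom powder (HFD+WBM), which they ate for 3 months. Affymetrix Mouse Gene 1.0 ST arrays measured liver RNA from 4 OVX mice on each diet, 1 array a mouse. Both groups lacked ovaries, as a model of women after menopause in which estrogen comes only from other tissues. No mouse with ovaries was measured on these arrays, so the values compare the diets and hold no measure of the surgery itself.

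Estrogen acts in the liver mostly through estrogen receptor alpha, the product of Esr1, a transcription factor that is activated when estradiol binds it. Esr2 encodes estrogen receptor beta. Esrra, Esrrb and Esrrg encode the estrogen-related receptors (ERRs), which share sequence with the estrogen receptors but do not bind estrogen, and of which the alpha and gamma forms switch on mitochondrial and energy metabolism genes together with PGC-1 coactivators. The dehydrogenases set how much active hormone reaches a receptor. The Hsd17b2 enzyme oxidizes estradiol to the weaker estrone and testosterone to androstenedione. Hsd17b11 encodes another 17 beta-dehydrogenase, which sits on lipid droplets, and Hsd11b1 encodes the reductase that regenerates active glucocorticoid inside the hepatocyte.

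The deposited values were log2 signals already normalized by the authors, and their median over genes was 7.23 to 7.37 with HFD and 7.26 to 7.32 with HFD+WBM. The array of HFD replicate 3 stood apart, its values scattering around the other arrays with an SD of 0.68 over genes, compared with 0.38 to 0.50 for the other 7. The 7 measured hepatocyte markers had means from 11.86 to 14.10 (log2), as the tissue label calls for, and none passed p under 0.05 before adjustment in either direction (limma), against 1 by an equal-variance test per gene without moderation. Macrophage and Kupffer cell markers gave 13 lower genes of 17 at p under 0.05 before adjustment, and the mean over the 17 was 8.49 to 9.11 in the HFD mice and 8.0 to 8.56 in the HFD+WBM mice. Lower markers also numbered 4 of 13 for stellate cells and matrix and 2 of 10 for sinusoidal endothelium. None of the measured cholangiocyte, lymphocyte or adipocyte markers passed. In whole liver, fewer cells of a type and less RNA per cell cannot be told apart, and the part of this shift in the values below was not tested.

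None of the 8 measured genes differed between the diets at p under 0.05 before adjustment (limma), while 11.7% of all genes did, 6.9% lower and 4.85% higher with HFD+WBM. None therefore met the study's thresholds of p under 0.05 with a change of at least 2-fold, which 0.762% of all genes met. The 2 diets overlapped for each of the 8 genes, whereas 8.23% of all genes had no overlap between the diets. Of the 8 estimates, 4 were above 0 and 4 below, with a median log2 fold change of 0.01, equal to that of all genes. The estimate nearest to the p threshold was that of Hsd17b2, followed by that of Esr1, both lower with HFD+WBM. With Benjamini-Hochberg adjustment no gene on the array had an adjusted p under 0.05 from limma, although 2341 had p under 0.05 before it, and the test without moderation gave 0 after adjustment and 2596 before. Limma gave 139 genes after adjustment when its prior variance was tied to the mean signal, none of them among the 8, whose adjusted p was 0.238 or more.

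**Figure D1:**
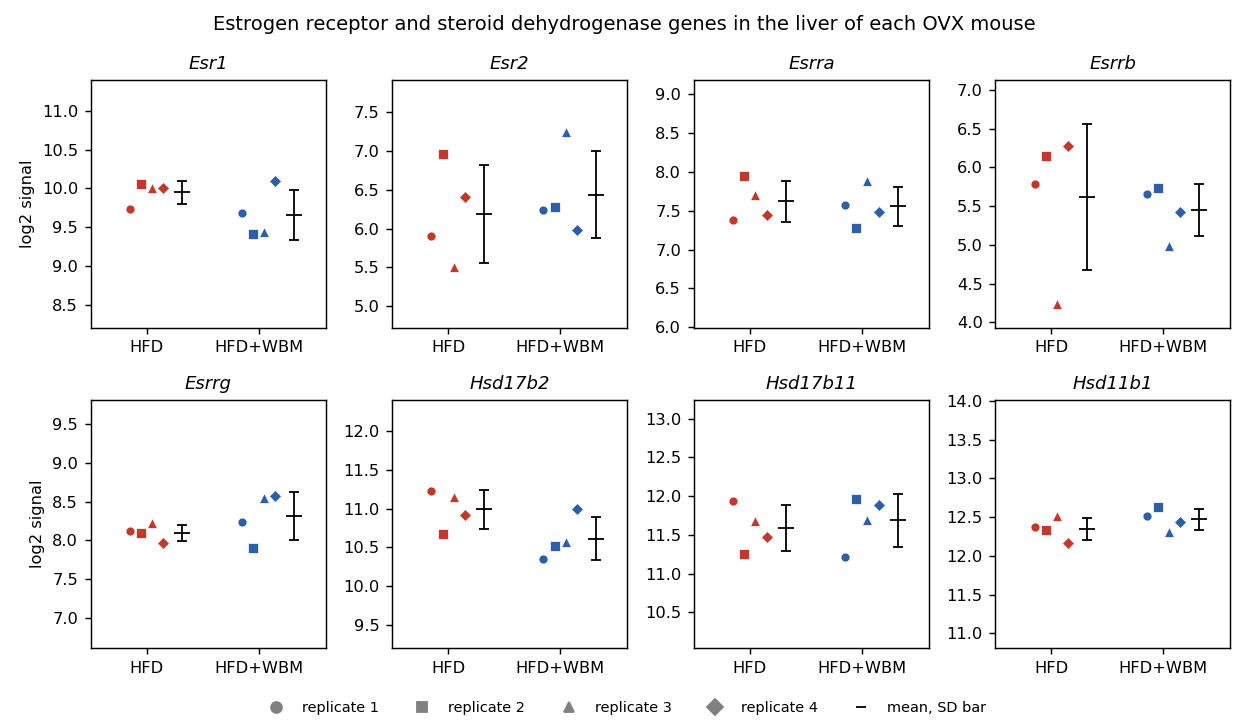
Log2 signal (vertical axis) of each measured gene by mouse (red, HFD; blue, HFD+WBM), with a marker shape per replicate number and a black bar for the mean and SD of each diet (n = 4). Each panel spans 3.2 log2 units around its own gene, and the diets overlap in all 8 panels.

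Of the estrogen receptors, Esr1 had a somewhat lower mean with HFD+WBM, but the diets overlapped and it did not pass p under 0.05 before adjustment (limma). Esr1 (probe set 10367600) was 9.73, 10.06, 10 and 10.01 (log2) in HFD replicates 1 to 4, and 9.68, 9.41, 9.44 and 10.10 in HFD+WBM replicates 1 to 4. HFD+WBM replicates 1, 2 and 3 thus lay below every HFD mouse, and HFD+WBM replicate 4 lay above every HFD mouse. Esr1 averaged 9.95 ± 0.15 (SD, n = 4) in HFD mice against 9.66 ± 0.32 (SD, n = 4) in HFD+WBM mice, a log2 fold change of -0.29 (standard error 0.19, exact permutation p = 0.20, two-sided). In fold terms, the 95% interval from limma ran from 1.63-fold lower to 1.09-fold higher, so that a 2-fold change of Esr1 in either direction lay outside it. Without HFD+WBM replicate 4 the log2 fold change was -0.44, which passed p under 0.05 before adjustment (Benjamini-Hochberg adjusted p = 0.49, limma).

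Esr2 gave a dim and variable signal. It lay below the array's median gene on all 8 arrays, at 5.90, 6.96, 5.5 and 6.41 (log2) in HFD replicates 1 to 4 and at 6.24, 6.28, 7.25 and 5.98 in HFD+WBM replicates 1 to 4. The highest and the lowest HFD mice enclosed all HFD+WBM mice except replicate 3. The log2 fold change was 0.25 (standard error 0.36, 95% interval -0.55 to 1.04), which takes in a 2-fold rise and it dropped to 0.01 or -0.02 when replicate 3 of HFD or of HFD+WBM, respectively, was left out. No detection call accompanies these values, so it is not known whether the Esr2 signal was above background in any mouse. Gper1, which encodes the G protein-coupled estrogen receptor of the cell surface, gave an estimate of 0.17 (log2, standard error 0.30), and of -0.15 without HFD replicate 3.

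Among the ERRs, Esrra and Esrrg were measured with a spread close to that of a typical gene, and Esrrb was not. Esrra was 7.38, 7.95, 7.70 and 7.45 (log2) in HFD replicates 1 to 4 and 7.57, 7.28, 7.88 and 7.49 in HFD+WBM replicates 1 to 4. Its groups were interleaved, and the log2 fold change was -0.07 (standard error 0.19), with a 95% interval from 1.4-fold lower to 1.28-fold higher. The sign of this estimate turned when replicate 2 of either diet was left out (0.04 and 0.02).

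Esrrg was 8.12, 8.09, 8.22 and 7.96 (log2) in HFD replicates 1 to 4 and 8.24, 7.90, 8.55 and 8.57 in HFD+WBM replicates 1 to 4. HFD+WBM replicates 1, 3 and 4 lay above every HFD mouse, and replicate 2 lay below every HFD mouse. Esrrg averaged 8.10 ± 0.10 (SD, n = 4) in HFD mice against 8.31 ± 0.32 (SD, n = 4) in HFD+WBM mice, a log2 fold change of 0.21 (standard error 0.18, exact permutation p = 0.26). Its 95% interval ran from 1.14-fold lower to 1.54-fold higher. Leaving out HFD+WBM replicate 2 brought the log2 fold change to 0.35, which did not pass p under 0.05 before adjustment either.

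Esrrb, better known from pluripotent stem cells than from liver, was the most variable of the 8, with a range of 2.04 (log2) over the mice. It was 5.79, 6.15, 4.24 and 6.28 in HFD replicates 1 to 4 and 5.65, 5.74, 4.99 and 5.42 in HFD+WBM replicates 1 to 4, below the array's median gene on every array. HFD replicate 3, the array that stood apart from the rest over all genes, held the lowest value, and HFD+WBM replicate 3 the next lowest. With all mice the log2 fold change was -0.16 (standard error 0.41, 95% interval -1.09 to 0.76). Without HFD replicate 3 it was -0.62 and passed p under 0.05 before adjustment (Benjamini-Hochberg adjusted p = 0.40, limma), and the remaining HFD mice, at 5.79 or more, then lay above all HFD+WBM mice, at 5.74 or less. As for Esr2, the files do not tell whether this signal was above background.

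**Figure D2:**
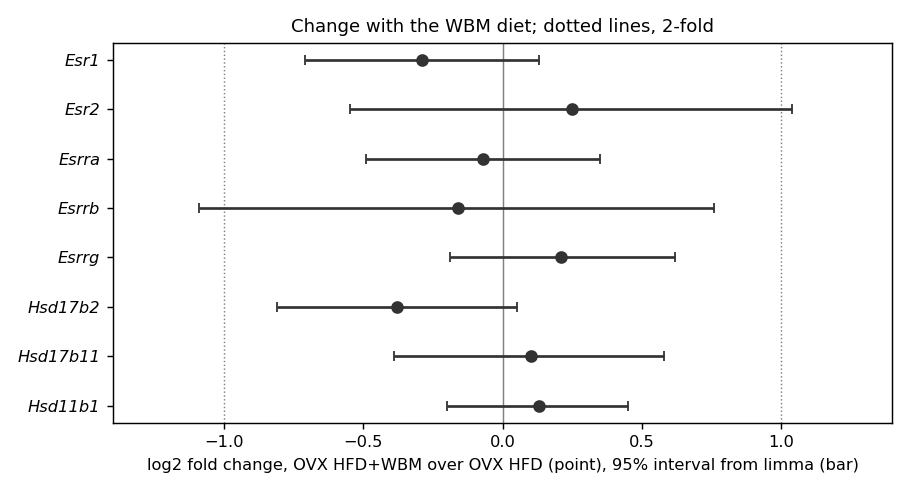
Log2 fold change of each measured gene, OVX HFD+WBM over OVX HFD (horizontal axis, 4 mice each), with the 95% interval from limma as a bar and dotted lines at a 2-fold change. All 8 intervals take in 0, and only those of Esr2 and Esrrb reach a 2-fold change.

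Of the steroid dehydrogenases, Hsd17b2 came closest to a difference. Its values were 11.23, 10.67, 11.15 and 10.92 (log2, probe set 10575833) in HFD replicates 1 to 4 and 10.35, 10.52, 10.57 and 11 in HFD+WBM replicates 1 to 4. HFD+WBM replicates 1, 2 and 3 lay below every HFD mouse, and replicate 4, the same mouse that stood above every HFD mouse for Esr1, lay within the HFD range. Hsd17b2 averaged 10.99 ± 0.25 (SD, n = 4) in HFD mice against 10.61 ± 0.27 (SD, n = 4) in HFD+WBM mice, a log2 fold change of -0.38 (standard error 0.19, exact permutation p = 0.086, two-sided). The Benjamini-Hochberg adjusted p from limma was 0.46, and the 95% interval ran from 1.76-fold lower to 1.03-fold higher. Hsd17b2 passed p under 0.05 before adjustment with the prior variance tied to the mean signal, when only genes above the median level were tested, without HFD+WBM replicate 4 (log2 fold change -0.51) and without HFD replicate 2 (-0.49). The adjusted p of Hsd17b2 was 0.238 to 0.619 over these and all other settings tried.

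For the other 2 dehydrogenases the diets were interleaved. Hsd17b11 was 11.94, 11.25, 11.68 and 11.48 (log2) in HFD replicates 1 to 4 and 11.21, 11.96, 11.69 and 11.89 in HFD+WBM replicates 1 to 4. Replicate 1 was the highest mouse of the HFD group and the lowest of the HFD+WBM group. The log2 fold change was 0.10 (standard error 0.22), with an interval from 1.31-fold lower to 1.5-fold higher, and -0.01 without HFD replicate 2.

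Hsd11b1 varied least of the 8, with a range of 0.46 (log2) over all mice. It was 12.37, 12.33, 12.51 and 12.17 in HFD replicates 1 to 4 and 12.51, 12.63, 12.31 and 12.44 in HFD+WBM replicates 1 to 4. HFD+WBM replicate 2 was the highest and HFD replicate 4 the lowest, and the others mixed. The log2 fold change was 0.13 (standard error 0.14), and the 95% interval, from 1.15-fold lower to 1.37-fold higher, was the narrowest of the 8.

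**Figure D3:**
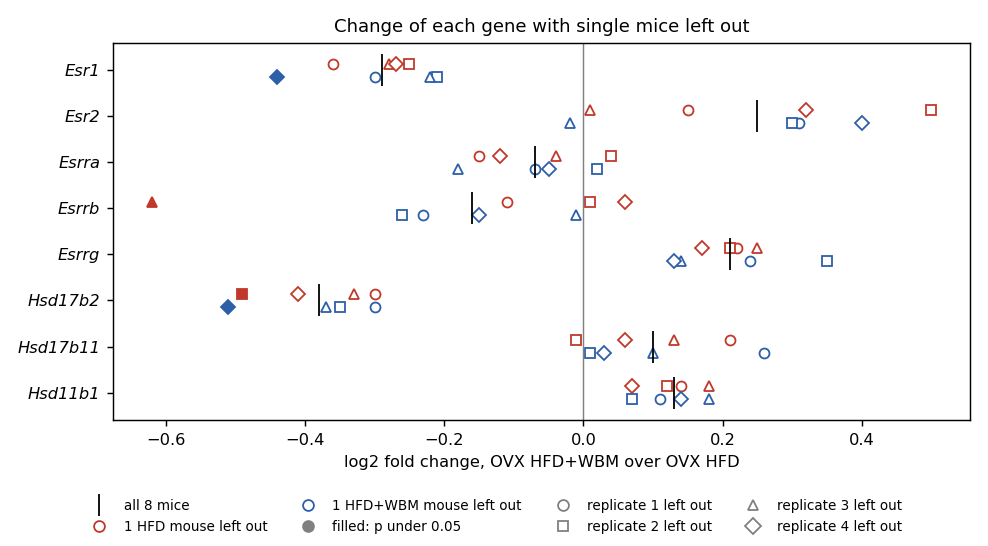
Log2 fold change of each measured gene, OVX HFD+WBM over OVX HFD (horizontal axis), with all 8 mice (black bar) and with each mouse left out in turn (marker shape, replicate number; red, an HFD mouse left out; blue, an HFD+WBM mouse left out; filled, p under 0.05 before adjustment from limma). Esr1 and Hsd17b2 stay below 0 and Esrrg and Hsd11b1 above 0 in every case, and Esrrb moves from -0.16 to -0.62 without HFD replicate 3.

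Around these genes, 135 others that were listed by role, some of them in 2 lists, were measured. Of these, 18 (13.3%) passed p under 0.05 before adjustment, 6 lower and 12 higher. Of all genes 11.7% passed, 6.9% lower and 4.85% higher, so the shares were near but the more frequent direction differed. The lists were chosen with earlier results of these data known, so these counts are no test of a direction. After Benjamini-Hochberg adjustment limma called none of the 135 in the main analysis. With the prior variance tied to the mean signal 8 of the 135 had an adjusted p under 0.05, A1bg, Nudt7 and Cs lower and Gadd45b, Mt1, Mt2, Acot3 and Cyp1a2 higher, with adjusted p from 0.00201 (A1bg) to 0.0472 (Cyp1a2), and so did Gadd45b (adjusted p = 0.045) when only genes above the median level were tested. Among 24 other hydroxysteroid dehydrogenases and reductases, 1 was lower, none was higher and the median log2 fold change was -0.07. That gene was Hsd17b12, which was 10.93 to 11.43 (log2) in the HFD mice and 10.56 to 10.86 in the HFD+WBM mice without overlap, 1.38-fold lower (Benjamini-Hochberg adjusted p = 0.38, limma). The Hsd17b12 enzyme can reduce estrone to estradiol but is best known as the ketoacyl-CoA reductase of fatty acid elongation. Hsd17b1, the classical estrone reductase of the ovary, was estimated at 0.39 (log2, standard error 0.24), and at 0.17 without HFD replicate 3, and did not pass.

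Of 12 genes of steroid synthesis and hydroxylation, Cyp1a2, a P450 that makes 2-hydroxyestrogens and metabolizes caffeine, was higher (1.45-fold, log2 fold change 0.53, standard error 0.18) and 11 did not pass. The diets overlapped for Cyp1a2, at 11.86 to 12.55 (log2) in the HFD mice and 12.52 to 12.78 in the HFD+WBM mice. Among those that did not pass, Star, Cyp11a1, Cyp11b1, Cyp21a1 and Cyp1b1 lay below the array's median gene on all 8 arrays. Aromatase, encoded by Cyp19a1, was not analysed here. Of 17 genes of steroid conjugation and transport, Serpina6, which encodes the corticosteroid-binding globulin of plasma, was higher (1.25-fold), and 16 did not pass. The call of Serpina6 was lost with each array centred on its median, with quantile normalization, and without replicate 1, 2 or 4 of either diet. Sult1e1, the estrogen sulfotransferase that inactivates estrogen, had the lowest estimate of that list, -0.78 (log2, standard error 0.53), with 1 mouse, HFD+WBM replicate 3, at 3.89 (log2) and all others at 6.04 to 6.84. Without that mouse the Sult1e1 estimate was -0.18.

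Of 13 other steroid and related nuclear or membrane receptors, 2 were higher and none was lower. Vdr, the vitamin D receptor, was 6.08 to 6.32 (log2) in the HFD mice and 6.47 to 7.32 in the HFD+WBM mice, 1.53-fold higher (Benjamini-Hochberg adjusted p = 0.37, limma), and it passed p under 0.05 before adjustment whichever mouse was left out. Vdr lay below the array's median gene on 7 of 8 arrays. Nr5a2, which encodes LRH-1, a regulator of bile acid and steroid genes, was 1.29-fold higher, from 8.65 to 9.02 in the HFD mice and from 9.11 to 9.37 in the HFD+WBM mice. The call of Nr5a2 was lost when HFD replicate 3 or any HFD+WBM mouse except replicate 3 was left out. None of 14 receptor coregulators passed p under 0.05 in either direction (limma; 3 did by the test without moderation; median log2 fold change 0.19), and Ppargc1a, which encodes the PGC-1 alpha partner of the ERRs, was estimated at 0.38 (log2, standard error 0.25) and ran from 0.18 without HFD replicate 1 to 0.56 without HFD replicate 4, when alone it passed p under 0.05 before adjustment. With the gene's probe sets averaged the Ppargc1a estimate was 0.21.

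Of 16 mitochondrial genes linked to the ERRs, 2 were lower, none was higher and the median log2 fold change was -0.07. They were Cs, citrate synthase, 1.47-fold lower and past p under 0.05 before adjustment whichever mouse was left out, and Cycs, cytochrome c, 1.27-fold lower with no overlap between the diets (log2 fold change -0.35, or -0.61 with the gene's probe sets averaged). The diets overlapped for Cs, at 10.95 to 11.49 (log2) in the HFD mice and 10.63 to 10.97 in the HFD+WBM mice. Cs also takes part in making citrate for lipid synthesis. The call of Cycs was lost with quantile normalization and when replicate 1 or 2 of the HFD mice or 3 or 4 of the HFD+WBM mice was left out.

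Among 15 glucocorticoid-responsive genes, whose transcription responds to the hormone that Hsd11b1 regenerates, 4 were higher, none was lower and all 15 estimates were above 0, with a median log2 fold change of 0.44. Of all genes 4.85% were higher at p under 0.05 before adjustment (limma), and the median of all genes was 0.01. The list was chosen with earlier results of these data known, so its count and median are no test of a glucocorticoid response. HFD replicate 1 was the lowest of the 8 mice for 11 of the 15 genes, and without it the median was 0.20 and Tsc22d3 lay below 0. Leaving out HFD replicate 3 also put Tsc22d3 below 0, and leaving out HFD+WBM replicate 2 or 4 put Dusp1 below 0. With array weights and all 8 mice Tsc22d3 lay below 0 as well, and the median was 0.36. The 4 were Gadd45b, a stress-response gene (3.19-fold), the metallothioneins Mt2 (3.06-fold) and Mt1 (2.34-fold), and the clock gene Per1 (1.58-fold), all of which respond to other signals as well. The 11 that did not pass were Fkbp5, Tsc22d3, Zbtb16, Sgk1, Dusp1, Klf9, Tat, Pck1, Errfi1, Igfbp1 and Angptl4. Gadd45b was 5.62 to 7.21 (log2) in the HFD mice and 7.86 to 8.83 in the HFD+WBM mice (log2 fold change 1.68, standard error 0.37), and it passed whichever mouse was left out, as did Mt1. The diets overlapped for Mt2, at 8.63 to 10.42 (log2) in the HFD mice and 10.35 to 12.51 in the HFD+WBM mice. They also overlapped for Mt1 (10.3 to 11.4 and 11.26 to 12.78, in the same order) and for Per1 (8.11 to 9.37 and 9.2 to 9.59). Per1 did not pass with array weights, nor when replicate 1 or 3 of the HFD mice or any HFD+WBM mouse except replicate 1 was left out, and Mt2 did not pass without HFD replicate 1. Neither passed by the test without moderation. The number of higher genes was 2 without HFD replicate 1, 7 without HFD replicate 2 or 4, and 8 without HFD+WBM replicate 1. H6pd, which supplies NADPH to the Hsd11b1 enzyme, had an estimate of 0.33 (log2, standard error 0.17) that ran from 0.23 without HFD+WBM replicate 2 to 0.45 without HFD+WBM replicate 1. It passed p under 0.05 before adjustment in the latter case and with the prior variance tied to the mean signal. The estimate for Hsd11b2, which inactivates glucocorticoid, was 0.24 (log2, standard error 0.18), and 0.10 without HFD+WBM replicate 3.

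Genes that differ between the sexes in mouse liver through growth hormone, which estrogen influences, were called in both directions. Of 14 female-biased genes 4 were higher and 1 was lower (median log2 fold change 0.28). The higher genes were Cux2, a transcription factor of the female liver (1.90-fold), Acot3, an acyl-CoA thioesterase (1.47-fold), Fmo2, a monooxygenase (1.43-fold), and Slc22a26, an organic anion transporter (1.56-fold). The first 3 of these did not overlap between the diets, while Slc22a26 overlapped and did not pass without replicate 2 or 4 of either diet or by the test without moderation. Without HFD replicate 3, the array that stood apart, the log2 fold change of Cux2 was 0.61 in place of 0.93. The lower gene was A1bg, which encodes a secreted glycoprotein. It was 10.92, 9.45, 9.47 and 8.34 (log2) in HFD replicates 1 to 4 and 8.21, 5.5, 3.67 and 6.83 in HFD+WBM replicates 1 to 4, with no overlap and a wide spread within each diet. Its log2 fold change was -3.49 (standard error 0.88), and it was -2.70 to -4.21 when 1 mouse was left out, the ends being those without replicates 3 and 1 of the HFD+WBM mice. Of 14 male-biased genes none was higher and 2 were lower (median log2 fold change -0.11, or -0.26 without HFD+WBM replicate 3), namely Nudt7, a peroxisomal coenzyme A hydrolase (1.65-fold), and C6, a complement component (1.53-fold). Nudt7 passed whichever mouse was left out, and C6 did not pass when replicate 1 of the HFD mice or replicate 3 of either diet was left out. Much of the male-biased list was dim. Hsd3b5, Moxd1, Cyp4a12a, Cyp4a12b and Slco1a1 lay below the array's median gene on all 8 arrays, and Elovl3 on 7. When only genes above the median level were tested, 8 of the 14 remained, with a median log2 fold change of -0.26.

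**Figure D4:**
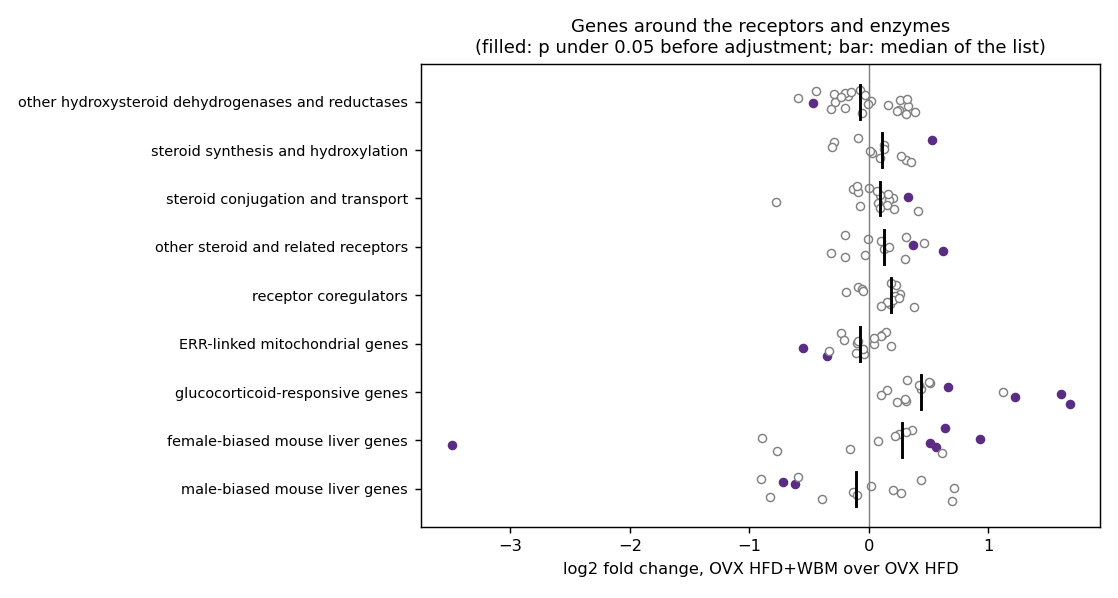
Log2 fold change of single genes in 9 lists named by role, OVX HFD+WBM over OVX HFD (horizontal axis), with the median of each list as a black bar and filled points for p under 0.05 before adjustment from limma. The glucocorticoid-responsive genes all lie above 0 in the main analysis with all 8 mice. Tsc22d3 does not with array weights, nor without HFD replicate 1, when that list's median is 0.20 in place of 0.44. A1bg is the point farthest to the left.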

How the data were processed

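The arrays of 8 OVX livers are 1-colour arrays. Background correction, normalization and the summary per transcript were done by the authors with IterPLIER in Affymetrix Power Tools 1.8.6. What was deposited is a log2 signal per probe set. The sources used here give no offset before the log, no detection call and no genome build. The group (control or WBM) and the replicate number were taken from sample titles. The study describes array samples from OVX mice on HFD or HFD+WBM, and control was taken as HFD. Of 28944 probe sets, 21789 name 1 gene in the platform annotation, and the one with the highest mean stood for its gene (GRCm38.p6 symbols through gene numbers).

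All 19938 genes were fitted with lmFit and eBayes (limma 3.58.1, R 4.3.3), diet as the only term, with Benjamini-Hochberg adjustment over all genes. The fit was tested on simulated data with planted changes larger than any member's estimate, so that test does not show how often smaller changes would be found. The exact permutation tests were two-sided over all 70 divisions of the mice, and 0.029 is the smallest p they can give. Precision is limited by the number of arrays. Members and lists were chosen with earlier results of these data known. Named genes were the members and, from each list, up to 4 genes with the smallest p among those past 0.05. Gper1, Hsd17b1, Sult1e1, Ppargc1a, H6pd and Hsd11b2 were named for their role and Slc22a26 to complete a count, after their values were seen. Genes named only as not passing, below 0 or dim were also named after their values were seen. They are not among the 32 genes looked at for single outlying mice. Each array is labelled as its own liver specimen, and the spread is taken as that between mice. Alternatives were array centring, quantile normalization, a prior variance tied to the mean signal, array weights, an equal-variance test per gene without moderation, only genes above the median level, an offset of 16, a gene's probe sets averaged, the replicate number as a block, and leaving out each mouse. For the arrays the study names the ArrayTools package. It names a t-test for comparing the diets in vivo, without saying whether the arrays were included.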

Additional observations from a re-analysis of the deposited data

Results flagged for a closer look

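For 3 of 64 groups of 4 mice (32 named genes in each of 2 diets), a single mouse lay far from its group by Dixon's test, which picks about 5% of groups by chance. HFD replicate 3 had the Nr5a2 value 8.65 (log2) while its group was otherwise at 9.01 to 9.02. HFD+WBM replicate 3 had the Nr5a2 value 9.11 while its group was otherwise at 9.36 to 9.37. HFD+WBM replicate 1 had the Cs value 10.97 while its group was otherwise at 10.63 to 10.68. None of the 8 receptor and dehydrogenase genes had such a mouse.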

How the results depend on the processing

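Of the 8 genes, the number past p under 0.05 before adjustment (limma) was 0 in the main analysis, 1 with the prior variance tied to the mean signal and 1 of 6 when only genes above the median level were tested, Hsd17b2 both times, and 0 to 2 when 1 mouse was left out. It was 0 under centring, quantile normalization, array weights, the equal-variance test without moderation, an offset of 16 and averaged probe sets. The estimate turned for Esr2 with array weights (-0.04) and without HFD+WBM replicate 3 (-0.02), for Esrra without replicate 2 of HFD (0.04) or of HFD+WBM (0.02), for Esrrb without HFD replicate 2 (0.01) or 4 (0.06), for Hsd17b11 without HFD replicate 2 (-0.01) and for Gper1 without HFD replicate 3 (-0.15). The cause was not tested. With 1 mouse left out the estimates ran from -0.02 to 0.50 for Esr2, from -0.18 to 0.04 for Esrra, from -0.62 to 0.06 for Esrrb, from -0.01 to 0.26 for Hsd17b11 and from -0.15 to 0.33 for Gper1. Over the 135 listed genes the 18 calls became 36, 14 lower and 22 higher, with the prior variance tied to the mean signal. Over all settings the calls numbered 1 to 4 for the other dehydrogenases and reductases (1 in the main analysis), 1 to 2 for synthesis and hydroxylation (1), 0 to 2 for conjugation and transport (1), 1 to 4 for other receptors (2), 0 to 3 for coregulators (0), 1 to 4 for ERR-linked genes (2), 2 to 8 for glucocorticoid-responsive genes (4), 4 to 10 for female-biased genes (5), 1 to 4 for male-biased genes (2), 10 to 14 for macrophage markers (13), 2 to 6 for stellate and matrix markers (4), 1 to 4 for endothelial markers (2) and 0 to 1 for hepatocyte, cholangiocyte and lymphocyte markers (0). With a replicate block the counts were 0 of the 8 genes, 16 of the 135 (among those named here, Serpina6, Nr5a2, Cycs, C6 and Slc22a26 did not pass) and 1757 of all genes, against 2341. Same-numbered mice did not deviate together (correlation of deviations -0.12 to -0.02). These correlations cannot exclude a pairing by cage, feeding or handling. The study matched food intake between the groups by pair feeding, and the sources used here do not say whether single mice were matched. Dim signals with no background limit restrict Esr2, Esrrb, Gper1, Hsd17b1 and Sult1e1, below the array's median gene on all 8 arrays, Vdr on 7, Gadd45b on 4 and A1bg on 3. Several lists also hold other genes below the array's median gene on all 8 arrays, none of which passed in the main analysis.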
